A study of Mus musculus with 12 samples.

Results

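The interleukin 1 and inflammasome genes described here were 10 genes chosen by symbol, namely Casp1, Il1a, Il1b, Il1r1, Il1rn, Il1rap, Nlrp3, Pycard, Il18 and Il18bp, with every probe set annotated to one of them alone. They took 19 of the 34945 probe sets assigned to a single gene, and 10 of 18193 genes. Expression was measured on Affymetrix mouse arrays in total RNA from adult C57BL/6J mice, with 2 arrays per genotype and 12 arrays in all. The 8 liver arrays came from double null mice (lacking both Dscr-1 and ApoE), ApoE null mice, Dscr-1 null mice and WT mice, all labelled as fed a high-fat diet for 12 weeks, whereas the study's results describe normal chow for its arrays. The 4 aortic arrays came from primary endothelial cells cultured for several days from double null mice and from ApoE null mice, so that both aortic groups lacked ApoE. The series design text gives Dscr-1 knockouts as controls of the aortic cells, but the sample titles and genotype labels say ApoE null, and these were followed. Both mutations are carried by the whole animal, and the sex of the mice was not stated. Every p-value rests only on how far the 2 samples of a genotype lay apart. This spread was pooled over all genotypes of a tissue and drawn toward that of all probe sets tested.

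Interleukin 1 alpha and interleukin 1 beta signal through the receptor IL1R1, which needs the accessory protein IL1RAP, and the receptor antagonist IL1RN occupies IL1R1 without signalling. Interleukin 1 beta and interleukin 18 are made as inactive precursors. The inflammasome, in which the sensor NLRP3 recruits the adaptor ASC (encoded by Pycard) and the protease caspase-1, cuts these precursors, and IL18BP traps mature interleukin 18. In liver and vessel wall the pathway is known from sterile inflammation, where macrophages are a main source of interleukin 1 and hepatocytes and endothelial cells respond to it. Dscr-1 is the feedback inhibitor of calcineurin, the phosphatase that activates NFAT transcription factors.

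In liver all 10 genes and 18 of the 19 probe sets exceeded their array's median signal on at least 2 arrays and were tested, and each gene was read from its brightest probe set. In aortic cells 8 probe sets of 6 genes did so. Array medians ran between 32.2 and 44.7 in liver, and the first ApoE null array had the highest median and the lowest mean correlation with the other liver arrays, 0.839 against 0.875 to 0.885. Apoe, the deleted apolipoprotein gene, had liver signals of 79.8 to 305 on the 4 arrays labelled as lacking it and 19937 to 21510 on the other 4. In the aortic cells Apoe was at log2 8.29 and 6.69 in double null cells and 7.27 and 7.17 in ApoE null cells, above the array medians on all 4 arrays although all are labelled as lacking ApoE, and no aortic array with ApoE intact was at hand to set them against. Rcan1, the gene of Dscr-1, was not lower throughout where it is labelled as deleted. Its brighter probe set had liver signals of 491.5 and 209.5 in double null, 496.5 and 176.7 in ApoE null, 255.2 and 353.1 in Dscr-1 null, and 210 and 133.7 in WT livers, and its dimmer one 44.7 and 21.8 in double null, 41.0 and 2.7 in ApoE null, 7.5 and 5.1 in Dscr-1 null, and 19.6 and 46.9 in WT livers. In the aortic cells the brighter probe set was at log2 10.09 and 10.26 in double null cells and 9.99 and 9.92 in ApoE null cells, and the dimmer one was also higher on both double null arrays. The place of these probe sets relative to the deletion was not stated, so that the Dscr-1 genotype rests on the labels. All 8 hepatocyte markers measured exceeded the array median in liver, and all 10 endothelial markers did so in the aortic cells.

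Casp1, the inflammasome protease, gave the largest difference of the 10 genes in double null livers. Its signals were 85.5 and 93.1 in double null livers, 12.8 and 31.2 in ApoE null livers, 66.8 and 17.2 in Dscr-1 null livers, and 6.9 and 10.5 in WT livers. Both double null arrays lay above all 6 others, both WT arrays lay below all 6 others, and the ApoE null and Dscr-1 null arrays overlapped. In means Casp1 was 89.3 ± 5.37 in double null livers and 8.70 ± 2.55 in WT livers (SD, n = 2 each). The WT, ApoE null and second Dscr-1 null values lay under the median of their arrays, so Casp1 entered the test through 3 of 8 arrays, which included both double null ones. On the scale of log2(signal + 16), which compresses differences between low signals, double null livers were 2.09 above WT livers (SE 0.51, limma, unadjusted p = 0.0034, adjusted p = 0.671). They were 1.51 above ApoE null livers (SE 0.51, unadjusted p = 0.0178, adjusted p = 0.658).

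Il1r1, the signalling receptor, was higher on every liver array lacking Dscr-1. Its signals were 241.7 and 440.5 in double null livers, 311.5 and 385.1 in Dscr-1 null livers, 130.5 and 222.4 in ApoE null livers, and 135.4 and 98.6 in WT livers. All 4 arrays lacking Dscr-1 lay above all 4 arrays with Dscr-1 intact, while double null and Dscr-1 null arrays overlapped, as did ApoE null and WT arrays. Dscr-1 null livers were 1.46 above WT livers on the log2 scale (SE 0.45, limma, unadjusted p = 0.0118, adjusted p = 0.89), and double null livers were 1.38 above them (SE 0.45, unadjusted p = 0.0153, adjusted p = 0.689). ApoE null livers differed from WT livers by 0.50 (SE 0.45, unadjusted p = 0.293). A second Il1r1 probe set did not follow the brightest one. It was at 5.7 and 2.3 in double null livers, 2.8 and 8.3 in Dscr-1 null livers, 26.0 and 2.4 in ApoE null livers, and 30.9 and 26.4 in WT livers. It was below the array median on all 8 liver arrays and was not tested.

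**Figure D1:**
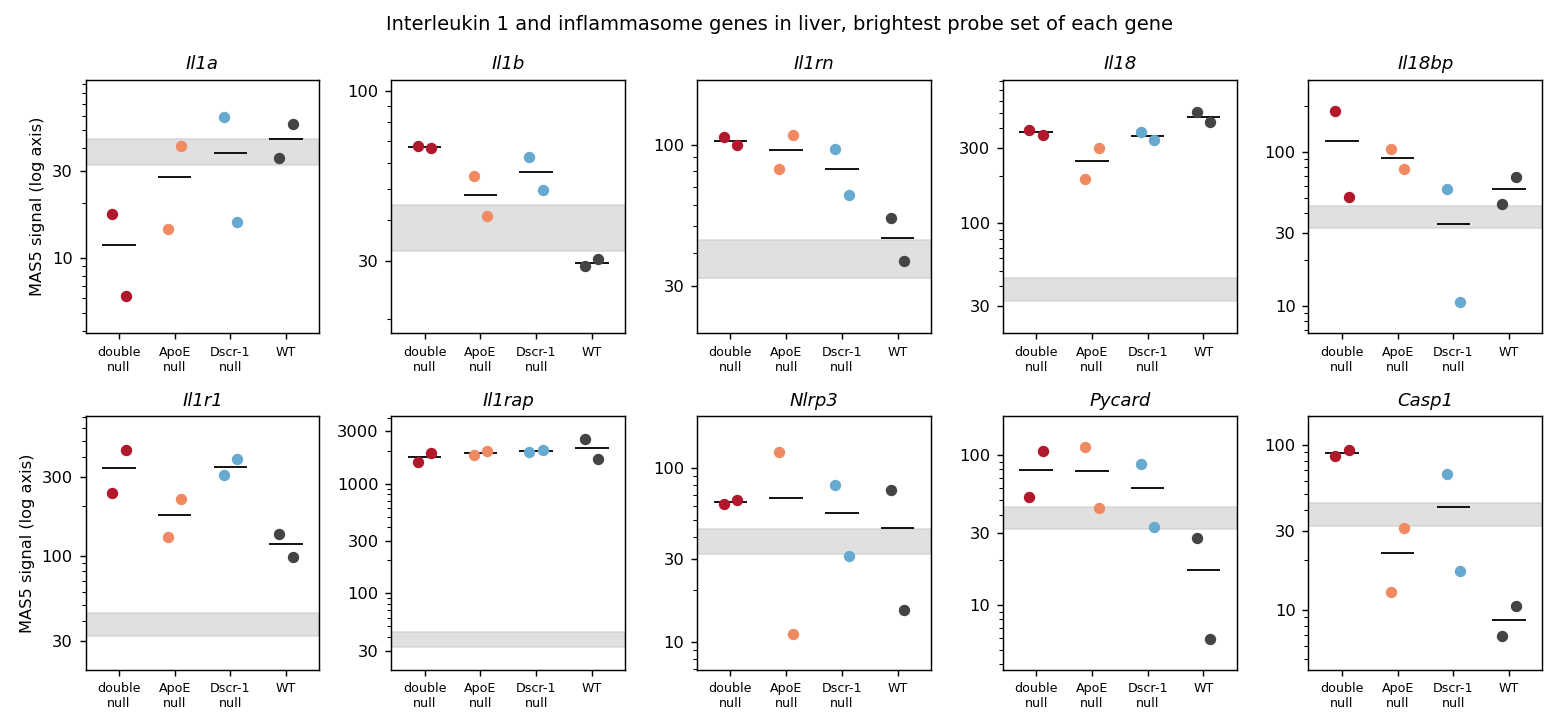
MAS5 signal (log axis, unitless) of the brightest probe set of each of the 10 genes in liver, with 1 point per array, black bars for the mean of 2 arrays, and a grey band for the range of array medians (32.2 to 44.7). Casp1 in double null livers (85.5 and 93.1) lies above every other array, and Il1r1 lies higher on the 4 arrays lacking Dscr-1 than on the other 4.

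The 250 bases before the transcription start of Casp1, of both listed starts of Il1r1, and of Il1rap (the receptor subunit with the largest aortic difference) are shown because these 3 genes gave the lowest unadjusted p-values among the 10 genes. They are RefSeq sequence of the build GRCm38.p6 on the plus strand, at chr9:5298267-5298516, chr1:40224830-40225079, chr1:40266336-40266585 and chr16:26581455-26581704. Capitals mark matches to GGAAA, the core letters bound by NFAT, or to GGGNNTTCC, a form of the NF-kappaB element, on either strand.
Casp1: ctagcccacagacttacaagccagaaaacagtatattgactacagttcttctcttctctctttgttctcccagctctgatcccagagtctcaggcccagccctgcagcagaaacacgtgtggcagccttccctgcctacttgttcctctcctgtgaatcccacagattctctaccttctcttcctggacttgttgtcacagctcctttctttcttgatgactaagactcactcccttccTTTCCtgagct
Il1r1, first start: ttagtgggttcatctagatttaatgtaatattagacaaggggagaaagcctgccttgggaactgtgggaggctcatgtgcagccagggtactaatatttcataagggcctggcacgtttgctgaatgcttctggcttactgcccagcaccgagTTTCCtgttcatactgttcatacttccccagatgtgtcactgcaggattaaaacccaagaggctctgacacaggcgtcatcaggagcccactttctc
Il1r1, second start: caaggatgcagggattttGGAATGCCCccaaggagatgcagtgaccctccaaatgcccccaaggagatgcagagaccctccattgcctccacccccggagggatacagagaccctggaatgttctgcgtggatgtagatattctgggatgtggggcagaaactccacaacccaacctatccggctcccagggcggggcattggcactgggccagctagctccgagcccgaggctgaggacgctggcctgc
Il1rap: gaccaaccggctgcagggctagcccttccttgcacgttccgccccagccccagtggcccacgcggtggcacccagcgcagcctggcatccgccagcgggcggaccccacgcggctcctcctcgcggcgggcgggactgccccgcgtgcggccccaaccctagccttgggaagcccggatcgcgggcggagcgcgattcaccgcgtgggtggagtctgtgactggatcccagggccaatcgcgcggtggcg
The Casp1 window held 1 GGAAA match 11 bases before the start, and the first Il1r1 window held 1 at 97 bases. The second Il1r1 window held 1 GGGNNTTCC match at 232 bases, and the Il1rap window held none of these letters. Over the 10 genes, 11 of 14 windows held GGAAA, against 55.6% of 32851 mouse windows of the same length. GGGNNTTCC stood in 3 of the 14 windows (second start of Il1r1 and both starts of Nlrp3), against 4.98% of all windows. The interferon response letters AAANNGAAA stood in 2 (one window each of Il1rn and Nlrp3), against 9.37%. A GGAAA match can lie inside a match to either longer motif, 2 of the Il1rn windows overlap each other, and a match describes letters only.

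Among the ligands, Il1b had signals of 67.5 and 66.9 in double null livers, 54.7 and 41.3 in ApoE null livers, 62.8 and 49.5 in Dscr-1 null livers, and 28.9 and 30.5 in WT livers. All 6 mutant arrays lay above both WT arrays, which were below their array medians. The log2 difference from WT was 0.86 in double null livers (SE 0.35, limma, unadjusted p = 0.0379, adjusted p = 0.79), 0.48 in ApoE null livers (SE 0.35) and 0.65 in Dscr-1 null livers (SE 0.35). Il1a pointed the other way in double null livers, with signals of 17.4 and 6.2 there, 14.4 and 41.3 in ApoE null livers, 59.2 and 15.8 in Dscr-1 null livers, and 35.4 and 53.9 in WT livers. The double null and WT arrays of Il1a did not overlap and differed by −1.14 (SE 0.54, unadjusted p = 0.0704), but 4 of its 8 liver values, the double null ones included, lay below the array median.

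Il18, the ligand that IL18BP traps, exceeded the array median on all 8 liver arrays. Its signals were 392.7 and 363.2 in double null livers, 192.0 and 301.0 in ApoE null livers, 378.0 and 338.2 in Dscr-1 null livers, and 508.0 and 439.0 in WT livers. Both WT arrays exceeded the 6 mutant arrays, and both ApoE null arrays lay below the other 6. ApoE null livers were 0.93 below WT livers, a log2 difference of −0.93 (SE 0.37, limma, unadjusted p = 0.0378, adjusted p = 0.74). The call at an unadjusted p under 0.05 was lost when any single liver array other than the second ApoE null array was left out, and with the replicate number as a block.

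The antagonist genes gave a mixed picture. The brightest Il1rn probe set had signals of 106.8 and 100.5 in double null livers, 81.9 and 109.2 in ApoE null livers, 97.1 and 65.6 in Dscr-1 null livers, and 53.8 and 37.1 in WT livers. All 6 mutant arrays exceeded both WT arrays, with a log2 difference of 0.97 for double null livers (SE 0.38, limma, unadjusted p = 0.0329, adjusted p = 0.771). The other Il1rn probe sets did not follow it, with double null minus WT differences of 0.45 (SE 0.44) and −0.26 (SE 0.45), and the first of these had its Dscr-1 null arrays, at 12.5 and 47.0, below its WT arrays, at 59.0 and 65.5. Il18bp, which neutralises interleukin 18, had signals of 184.0 and 50.7 in double null livers, 105.0 and 77.3 in ApoE null livers, 57.5 and 10.7 in Dscr-1 null livers, and 46.1 and 69.0 in WT livers. Its 2 double null arrays differed more from each other than the group means did, and the difference from WT was 0.67 (SE 0.65).

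The receptor subunit gene Il1rap showed no difference from WT livers beyond the spread of the WT arrays at its brightest probe set. Its brightest probe set gave 1586 and 1915 in double null livers, 1832 and 2010 in ApoE null livers, 1953 and 2019 in Dscr-1 null livers, and 2570 and 1697 in WT livers. The 2 WT arrays spanned all 6 mutant arrays except the first double null one, and the differences from WT were −0.26 in double null livers, −0.12 in ApoE null livers and −0.07 in Dscr-1 null livers (SE 0.37 each). The 4 dimmer Il1rap probe sets, at 3.1 to 183.0, pointed in different directions. One of them gave 40.4 and 36.4 in double null livers, 3.5 and 23.7 in ApoE null livers, 6.5 and 3.1 in Dscr-1 null livers, and 33.1 and 59.9 in WT livers. Both single mutants lay below WT (limma, unadjusted p = 0.0377, adjusted p = 0.74 for ApoE null and 0.00919, adjusted p = 0.89 for Dscr-1 null livers), while double null arrays overlapped WT arrays. This probe set exceeded the array median only on both WT arrays and the first double null array. It was thus tested through groups in which it was higher, and these p-values are no support for a difference.

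Of the inflammasome genes, the adaptor Pycard had signals of 52.1 and 106.6 in double null livers, 112.8 and 44.2 in ApoE null livers, 86.4 and 33.1 in Dscr-1 null livers, and 28.1 and 5.9 in WT livers. All 6 mutant arrays lay above both WT arrays, while the mutants overlapped one another. Its differences from WT were 1.56 in double null livers (SE 0.61, limma, unadjusted p = 0.0341, adjusted p = 0.778), 1.50 in ApoE null livers (SE 0.61, unadjusted p = 0.039) and 1.19 in Dscr-1 null livers (SE 0.61, unadjusted p = 0.0864). Of the other Pycard probe sets, one gave 0.93 between double null and WT livers (SE 0.50), and the other gave −0.60 (SE 0.52) with both WT arrays, at 51.1 and 57.1, above all 6 mutant arrays. The last of these exceeded the array median on the 2 WT arrays only, and so was tested through the group in which it was higher. The sensor gene Nlrp3 had signals of 62.0 and 65.3 in double null livers, 123.3 and 11.1 in ApoE null livers, 79.6 and 31.1 in Dscr-1 null livers, and 74.9 and 15.3 in WT livers. Replicates of Nlrp3 differed up to the whole range of the 8 arrays, and its differences from WT (0.20 to 0.58, SE 0.83 each) were within that spread.

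Counted together, 7 of the 10 genes had a positive and 3 a negative difference between double null and WT livers, against 50.8% of all genes with a positive one. At an unadjusted limma p under 0.05, 5 of 10 were higher (Casp1, Il1r1, Pycard, Il1rn and Il1b) and 0 were lower, against 3.51% of all genes higher and 1.8% lower. Of these 5, Casp1, Pycard and Il1b were below the array median on both WT arrays and entered the test through mutant arrays alone. Their part of this count, and of the count of positive differences, is no support for a difference. All 10 genes were also chosen with earlier results of these data known. None of the 10 passed at an adjusted p under 0.05 in this comparison, in which 0.0135% of all genes did. The double null and WT arrays did not overlap for 5 genes that were higher and 2 that were lower (Il1a and Il18), against 19.6% and 18.6% of all genes. The median difference was 0.77 over the 10 genes and 0.01 over all genes tested. The count of 5 was 1 without the second WT array, 1 without the second double null array, 3 without the first double null array, and 3 when all probe sets of a gene were averaged, and the count of genes lower was 1 without either Dscr-1 null array.

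ApoE null livers had 1 gene higher (Pycard, tested through mutant arrays alone) and 1 lower (Il18) than WT livers at an unadjusted limma p under 0.05, against 3.5% of all genes higher and 2.24% lower. The count of genes higher was 0 without the second WT array or the first ApoE null array and with all probe sets averaged, and 2 with an offset of 1 or a filter on both arrays of a genotype. The median difference over the 10 genes was 0.49 against 0.00 over all genes. Dscr-1 null livers had 1 gene higher than WT livers (Il1r1) and 0 lower, against 1.94% and 1.9%, with a median of 0.49 against −0.01. That count was 0 without the second WT array and 2 without the second Dscr-1 null array or with an offset of 1. Between double null and ApoE null livers 1 gene was higher (Casp1, below the median on both ApoE null arrays) and 0 lower, against 2.85% and 2.48%, with a median of 0.25 against 0.00. That count was 0 without the first ApoE null array or the second double null array, 2 without the second ApoE null array or with an offset of 64, and 3 with the trend and robust prior variance. None of the 10 genes passed the adjusted threshold in these comparisons, where 0.0135%, 0.00673% and 0% of all genes did. These comparisons share arrays with one another and with the comparison of double null and WT livers.

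**Figure D2:**
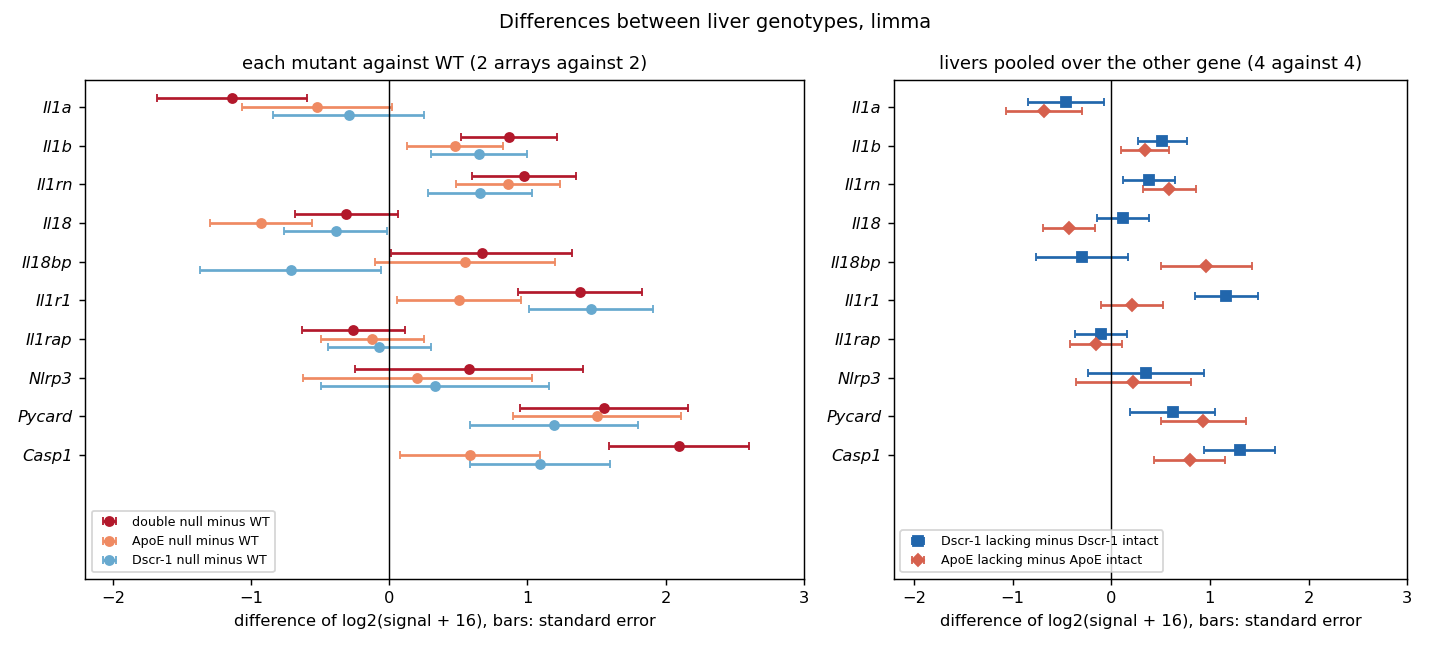
Difference in log2(signal + 16) for each of the 10 genes (points, with standard errors from limma as bars), for each mutant against WT on the left and for livers pooled over the other gene on the right. Casp1 (1.3) and Il1r1 (1.17) lie farthest from 0 for Dscr-1 loss, and no gene has an adjusted p under 0.05.

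Pooling the livers by Dscr-1 genotype set the 4 arrays lacking Dscr-1 (double null and Dscr-1 null) against the 4 with Dscr-1 intact (ApoE null and WT). Casp1 was 1.3 higher on the log2 scale (SE 0.36, limma, unadjusted p = 0.00685, adjusted p = 0.716) and Il1r1 was 1.17 higher (SE 0.32, unadjusted p = 0.00632, adjusted p = 0.716). The Il1r1 groups did not overlap, whereas the second Dscr-1 null array of Casp1, at 17.2, lay below the second ApoE null array, at 31.2. The 3 arrays through which Casp1 entered the test all lacked Dscr-1, so the filter favoured a difference in this direction, and it did not do so for Il1r1, which exceeded the median on all 8 arrays. These were the only 2 of the 10 genes at an unadjusted p under 0.05, against 2.24% of all genes higher and 2.38% lower, and 1 of 10 was higher with no overlap, against 1.49% of all genes higher and 1.35% lower. None of the 10 genes, and 0% of all genes, passed the adjusted threshold. The median difference was 0.37 over the 10 genes and 0.00 over all genes. With a prior variance that follows the mean signal and is robust to outliers, Il1r1 passed the adjusted threshold for Dscr-1 lacking against intact livers (adjusted p = 0.00736, range over its 16 alternatives 0.00736 to 0.972), and also between double null and WT livers (0.0264, range 0.0264 to 0.986) and between Dscr-1 null and WT livers (0.0303, range 0.0303 to 1.0).

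Pooling by ApoE genotype set the 4 arrays lacking ApoE (double null and ApoE null) against the 4 with ApoE intact (Dscr-1 null and WT). None of the 10 genes passed at an unadjusted limma p under 0.05, at which 3.97% of all genes were higher and 1.76% lower, and none had groups without overlap, against 2.23% higher and 1.64% lower. At an adjusted p under 0.05 the count was 0 of 10, against 0.00673% of all genes. The differences with the lowest p were 0.79 for Casp1 (SE 0.36, unadjusted p = 0.0581), 0.59 for Il1rn (SE 0.27, unadjusted p = 0.0586), 0.93 for Pycard (SE 0.43, unadjusted p = 0.062) and 0.97 for Il18bp (SE 0.46, unadjusted p = 0.0709). Il18 differed by −0.43 (SE 0.26) and Il1a by −0.68 (SE 0.38), and the median over the 10 genes was 0.29.

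Whether Dscr-1 loss differed with and without ApoE was tested as an interaction. Read from their brightest probe sets, none of the 10 genes passed at an unadjusted limma p under 0.05 (2.11% of all genes higher, 2.28% lower). None passed at an adjusted p under 0.05 (0% of all genes). Il18 had the lowest p among these brightest probe sets, at 1.0 on the log2 scale (SE 0.53, unadjusted p = 0.0935, adjusted p = 0.98). Double null livers were 0.62 above ApoE null livers for Il18, and Dscr-1 null livers differed by −0.39 from WT livers. The interaction was 0.42 for Casp1 (SE 0.72) and −0.58 for Il1r1 (SE 0.63).

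Cell type markers differed between the bulk livers, where fewer cells of a type and less RNA per cell cannot be told apart. All 16 macrophage and Kupffer cell markers exceeded the filter in liver, and their summed signal was 14243 to 21088 in double null livers, 9734 to 14469 in ApoE null livers, 6092 to 7737 in Dscr-1 null livers, and 5610 to 7828 in WT livers. The markers did not move as one. On the 4 arrays lacking ApoE 9 of the 16 were higher without overlap (among them Cd5l, Lyz2, Marco and the 3 C1q genes), against 2.23% of all genes. The other 7 overlapped (Adgre1, Cd14, Cd163, Clec4f, Csf1r, Timd4 and Vsig4). Adgre1, which encodes the macrophage marker F4/80, was at 163.4 and 193.8 in double null livers and 148.9 and 308.6 in WT livers. The 7 neutrophil markers on the array, 6 above the filter, summed to 465 to 486 in double null livers, 338 to 361 in ApoE null livers, 226 to 288 in Dscr-1 null livers, and 205 to 217 in WT livers. Both double null arrays lay above both WT arrays for 4 of these 7 genes (S100a8, S100a9, Mpo and Cxcr2), against 19.6% of all genes, while Ngp, Camp and Elane overlapped. Cxcr2 was the marker that stayed below the filter. The macrophage sum was higher on all 4 arrays lacking ApoE, and so was ordered differently from Il1r1, whose signals were higher on the 4 arrays lacking Dscr-1. The double null livers had the highest mean of both sums, as of Casp1, but the second double null array had a macrophage sum of 14243, below the first ApoE null array at 14469. The part of these cells in the differences of the 10 genes was not tested.

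The wider pathway was read from lists of genes named for their roles. These lists were chosen with earlier results of these data known. Their counts against all genes, in liver and in aortic cells, describe the lists and are no support for a difference. Among genes that interleukin 1 can induce, 13 of 18 were higher in ApoE lacking than in ApoE intact livers, against 50.5% of all genes, with a median of 0.61. At an unadjusted limma p under 0.05, 7 were higher and 0 lower, against 3.97% and 1.76% of all genes. Saa3, an acute-phase apolipoprotein, had signals of 1452.1 and 1396.7 in double null livers, 1442.7 and 1275.1 in ApoE null livers, 147.1 and 407.5 in Dscr-1 null livers, and 131.3 and 203.1 in WT livers, a difference of 2.69 (SE 0.36, unadjusted p = 7.2e-05, adjusted p = 0.535). Lcn2, an iron-sequestering acute-phase protein, differed by 2.78 (SE 0.51, adjusted p = 0.535) and the leukocyte adhesion molecule Vcam1 by 1.79 (SE 0.33, adjusted p = 0.535), each without overlap between the 4 arrays of either kind. With an offset of 64 added to the signal all 3 passed the adjusted threshold (1.3e-05 for Saa3, 0.000586 for Lcn2 and 0.00646 for Vcam1), and Saa3 and Vcam1 did so with the robust prior variance. Over their 16 alternatives the adjusted p reached 0.837 for each. By Dscr-1 genotype 11 of these 18 genes were higher in livers lacking it (49.6% of all genes), 2 at an unadjusted p under 0.05 (2.24% of all genes), with a median of 0.19.

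Of 10 inflammasome partners and effectors tested 5 were higher in ApoE lacking than in ApoE intact livers (50.5% of all genes), with a median of 0.06. At an unadjusted limma p under 0.05, 1 of the 10 was higher and 0 were lower (against 3.97% and 1.76% of all genes), namely Casp12, a relative of caspase-1. Its signals were 87.0 and 69.9 in double null livers, 93.5 and 77.0 in ApoE null livers, 31.9 and 24.0 in Dscr-1 null livers, and 47.0 and 57.9 in WT livers, with no overlap between ApoE lacking and intact livers (0.83, SE 0.25, unadjusted p = 0.0106, adjusted p = 0.624). The lysosomal protease gene Ctsb differed by 0.57 (SE 0.26) and Casp4, the sensor of cytosolic lipopolysaccharide, by 0.89 (SE 0.47). Casp4 exceeded the array median only on the second ApoE null array, at 45.5, and the first double null array, at 74.6. It was therefore tested only through livers lacking ApoE, and the second double null array was at 3.3. Of 7 other sensor genes 5 were higher, with a median of 0.81 and none at an unadjusted p under 0.05, and the lowest p were those of Naip2, a sensor of bacterial secretion systems (0.87, SE 0.38), Mefv, the pyrin gene (0.82, SE 0.39), and Nlrp12 (0.81, SE 0.39). The 15 genes of signalling below the receptor split into 8 higher and 7 lower, with a median of 0.04. None was at an unadjusted p under 0.05, and the lowest p were those of Ikbkb (−0.32, SE 0.27), Map3k7 (0.23, SE 0.28) and Mapk14 (−0.22, SE 0.26). All 5 other ligands of the family on the array were higher in ApoE lacking livers, none at an unadjusted p under 0.05. They were led by Il1f9 (0.92, SE 0.42), Il1f6 (0.68, SE 0.39) and Il1f8 (0.33, SE 0.35). Of the receptor genes only Il18rap (0.26, SE 0.50) and Sigirr (−0.11, SE 0.37) could be tested.

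**Figure D3:**
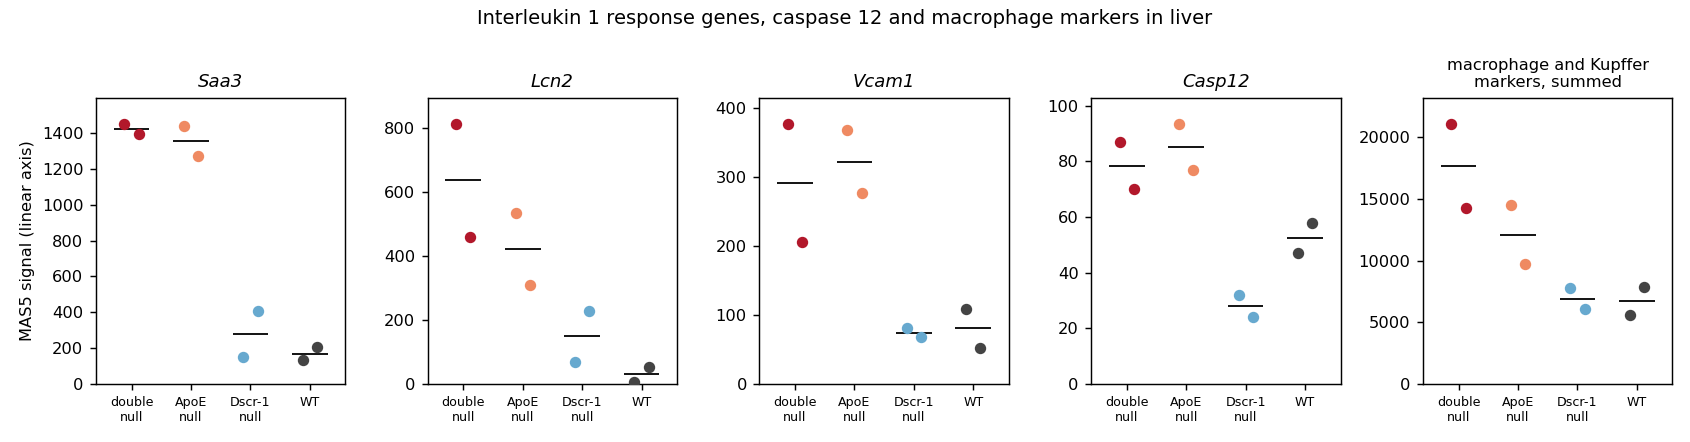
MAS5 signal (linear axis from 0) per liver array of Saa3, Lcn2, Vcam1 and Casp12, and the summed signal of 16 macrophage and Kupffer cell markers, with black bars for the mean of 2 arrays. The 4 arrays lacking ApoE lie above the other 4 in all 5 panels.

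In aortic endothelial cells the ligand, antagonist and sensor genes Il1a, Il1b, Il1rn and Nlrp3 stayed below the filter. Their log2 values ran from 2.76 to 3.08 for Il1a, 3.81 to 4.37 for Il1b, 2.74 to 3.15 over the 3 probe sets of Il1rn, and 3.76 to 4.31 for Nlrp3, against array medians of 4.45 to 4.50. The caspase, adaptor and receptor genes were well above the median. Casp1 was at 8.11 and 8.57 in double null cells and 8.39 and 8.40 in ApoE null cells, Pycard at 8.27 and 8.13 against 8.46 and 8.31, and Il1r1 at 8.02 and 7.89 against 7.84 and 7.87.

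Il1rap gave the largest difference of the 6 genes in these cells. Its brightest aortic probe set, another than in liver, was at 7.08 and 7.47 in double null cells and 6.28 and 6.07 in ApoE null cells. Both double null arrays lay above both ApoE null arrays, by 1.1 on the log2 scale (SE 0.20, limma, unadjusted p = 0.00297, adjusted p = 0.686). Same-numbered aortic arrays shared a run name, and the difference was 0.80 within the first run and 1.39 within the second. Il1rap passed the adjusted threshold without the first double null array (adjusted p = 2.87e-06) and without the second (0.00223), where the spread came from the 2 ApoE null arrays alone, and its adjusted p ranged up to 1.0 over the 10 alternatives. A second probe set was at 4.94 and 5.0 in double null cells and 4.39 and 4.08 in ApoE null cells (0.74, SE 0.17, unadjusted p = 0.0086, adjusted p = 0.753). It exceeded the array median on both double null arrays and on neither ApoE null array, so that it was tested only through the group in which it was higher. The third, the brightest in liver, was at 5.30 and 4.63 in double null cells and 4.92 and 4.35 in ApoE null cells, with overlap between the groups and a difference of 0.33 (SE 0.32). The remaining 2 stayed between 2.68 and 2.89 and were not tested.

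None of the other 5 aortic genes passed at an unadjusted limma p under 0.05. The differences were −0.05 for Casp1 (SE 0.21), 0.10 for Il1r1 (SE 0.15), −0.19 for Pycard (SE 0.16), 0.25 for Il18 (SE 0.20) and 0.08 for Il18bp (SE 0.38). Il18bp gave opposite signs in the runs, −0.54 in the first and 0.69 in the second, from 6.03 and 7.13 in double null cells and 6.57 and 6.44 in ApoE null cells. Il18 was near the array median, at 4.90 and 5.01 in double null cells and 4.92 and 4.49 in ApoE null cells. Of 6 genes tested 1 was higher and 0 lower at an unadjusted limma p under 0.05, against 2.68% and 2.27% of all genes, and 0 passed the adjusted threshold, which 0.0172% of all genes did. The arrays did not overlap for 2 genes that were higher (Il1rap and Il1r1) and 1 that was lower (Pycard), against 16.8% and 14.3% of all genes, and the median difference was 0.09 against −0.01 over all genes. The unadjusted count of genes higher was 2 without the first double null array, and 1 gene was lower without the second. Without the first double null array Il18bp differed by 0.63 with an adjusted p of 0.0211, which ranged up to 1.0 over its alternatives.

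**Figure D4:**
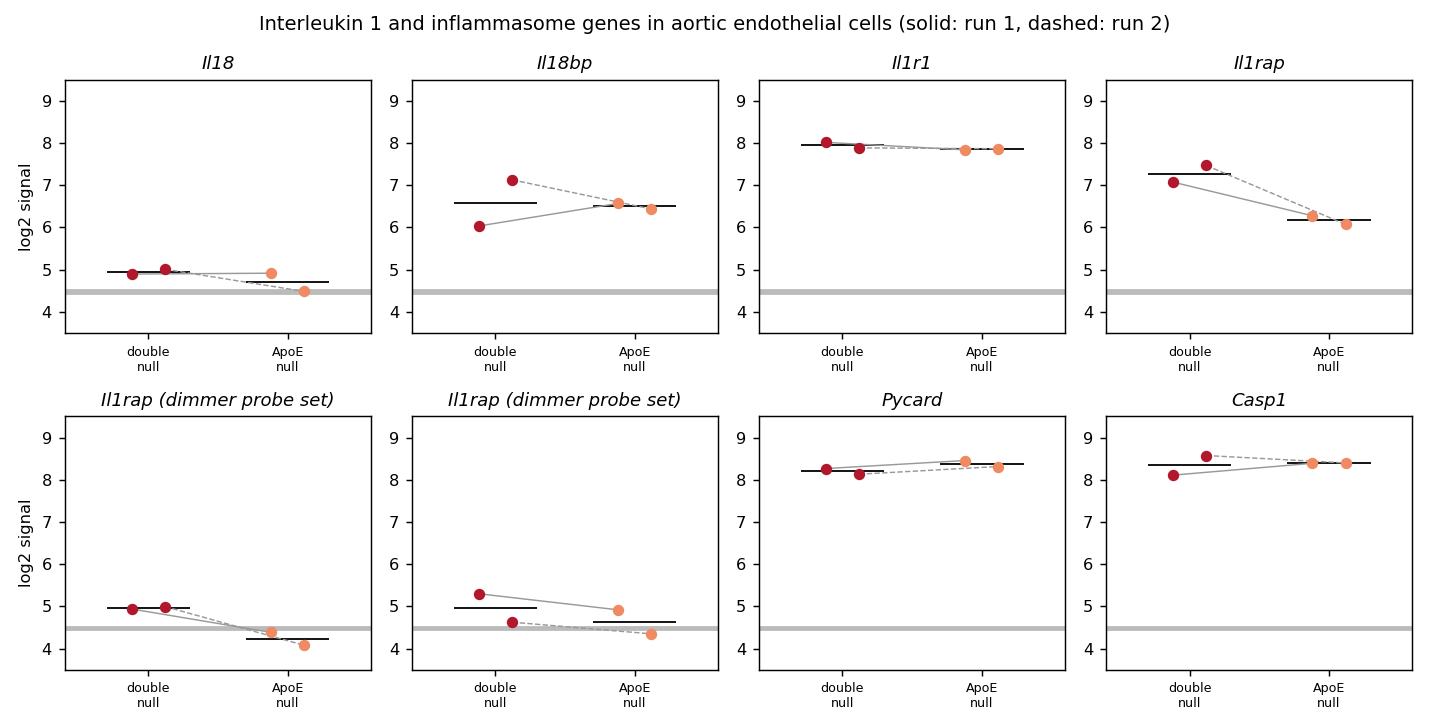
Log2 signal of the 8 aortic probe sets of 6 genes above the filter, with 1 point per array, black bars for the mean of 2 arrays, grey lines joining arrays of a run, and a grey band at the array medians (4.45 to 4.50). Il1rap is higher in double null cells (7.08 and 7.47) than in ApoE null cells (6.28 and 6.07), and the Il1r1, Pycard and Casp1 groups differ by at most 0.19.

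Around them, 12 of 14 interleukin 1 response genes tested had a positive difference between double null and ApoE null aortic cells, against 48.0% of all genes, with a median of 0.78. At an unadjusted limma p under 0.05, 2 were higher and 1 was lower, against 2.68% and 2.27% of all genes. The cytokine Il6 was at 6.27 and 8.39 in double null cells and 5.25 and 4.63 in ApoE null cells (2.39, SE 0.72, unadjusted p = 0.0214, adjusted p = 0.969), and the chemokine Ccl2 was at 12.90 and 13.62 against 12.58 and 12.50 (0.73, SE 0.27, unadjusted p = 0.0451). Vcam1 pointed the other way, at 12.05 and 11.78 in double null cells and 12.34 and 12.39 in ApoE null cells (−0.45, SE 0.17, unadjusted p = 0.0442). Irak3, an inhibitory kinase homologue of the receptor complex, was at 6.05 and 6.88 in double null cells and 5.61 and 5.60 in ApoE null cells (0.86, SE 0.30, unadjusted p = 0.0351), the only gene at an unadjusted p under 0.05 among 15 signalling genes. Of the receptor list the inhibitory receptor Sigirr differed by 0.36 (SE 0.18) and Il1rl2, the receptor of interleukin 36, by −0.31 (SE 0.15). Il18rap differed by 0.45 (SE 0.29). Of the signalling genes Irak2 differed by 0.19 (SE 0.20) and Ikbkg by 0.14 (SE 0.16). Of 10 inflammasome partners and effectors tested 3 were higher, with a median of −0.07 and none at an unadjusted p under 0.05. Casp12 (−0.37, SE 0.20) and Nek7 (−0.30, SE 0.19) were lower without overlap, and Card6 overlapped (−0.36, SE 0.24). Of the other sensor genes only Naip2 could be tested, and it was higher without overlap (0.42, SE 0.22). Without the first double null array Il6, Ccl2, Vcam1 and Irak3 passed the adjusted threshold (2.06e-16, 4.86e-05, 0.0326 and 3.12e-06), as did Il6 without the second (1.61e-05), with the spread taken from the 2 ApoE null arrays, and the adjusted p of each reached 1.0 under another setting.

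Markers of other cells differed between the aortic cultures too. Of 16 macrophage markers 5 exceeded the filter, and the sum over the list on the linear scale was 772 to 1684 in double null cells and 450 to 465 in ApoE null cells. Without overlap 7 of the 16 were higher in double null cells (Adgre1, C1qa, Cd14, Cd68, Csf1r, Fcgr1 and Lyz2), and 9 overlapped. C1qa and Fcgr1 were below the array median on every aortic array. Lyz2, a lysozyme gene of myeloid cells, was at 7.46 and 9.47 in double null cells and 5.33 and 5.48 in ApoE null cells, while Adgre1 stayed below the array median at 3.37 and 3.42 in double null cells and 3.34 and 3.11 in ApoE null cells. The 10 smooth muscle and fibroblast markers summed to 10898 to 16183 in double null cells and 7153 to 7362 in ApoE null cells. Of these, 2 (Dcn and Des) were higher without overlap in double null cells and 8 overlapped. The 10 endothelial markers summed to 19622 to 23273 in double null cells and 22102 to 22544 in ApoE null cells. Among them 3 were higher without overlap (Cldn5, Kdr and Tek), 4 were lower (Emcn, Eng, Pecam1 and Tie1) and 3 overlapped, Vwf included. Of all genes tested, 16.8% were higher and 14.3% lower without overlap. The second double null array stood apart, with the lowest mean correlation with the other aortic arrays (0.985 against 0.991 to 0.992). The endothelial marker Vwf was at 6.63 on it and at 9.44 on the first double null array, against 9.41 and 9.26 in ApoE null cells, and Eng was at 9.64 and 10.81 against 10.89 and 10.88. This array also held the higher double null values of Il1rap, Il6, Irak3 and Lyz2, and without it the Il1rap difference was 0.90 (adjusted p = 0.00223, with the spread taken from the ApoE null pair). Il1rap differed in the same direction as the macrophage and smooth muscle sums, and the part of these cells in its difference was not tested.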

How the data were processed

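Total RNA of 8 livers and 4 aortic endothelial cell cultures was hybridised to Affymetrix mouse arrays, 2 arrays per genotype, grouped by sample title and genotype label. The deposited liver values are MAS5 signals (linear intensity), scaled by the authors to a common average. The deposited values of the aortic arrays are log2, with a normalization not given in the sources used here. The submitters' notes name the Transcriptome Analysis Console. Control probe sets (64) were set aside, leaving 45037, of which 34945 had 1 gene, 932 several and 9160 none.

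Liver values were analysed as log2(signal + 16), aortic values as deposited. Probe sets were kept where at least 2 arrays of a tissue exceeded the array median (32005 in liver and 22927 in aortic cells), and a gene was read from its brightest kept probe set (14855 and 11650 genes). Each tissue was fitted with limma 3.58.1 in R 4.3.3 (lmFit, eBayes, a mean per genotype, 4 and 2 residual degrees of freedom), with Benjamini-Hochberg adjustment over all kept probe sets. Backgrounds are shares of all genes tested. The number of arrays limits the precision. The fit was tested on simulated data.

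The members and gene lists were chosen with earlier results of these data known. All 10 genes were named, with, from each list, up to 3 genes of lowest unadjusted p for ApoE lacking against intact livers and up to 3 for the aortic comparison. Alternatives were the offset (1, 64), quantile normalization, the filter, the mean of probe sets, the prior variance, the replicate block and leaving out each array. Same-numbered aortic arrays share a run in their source names (correlation of deviations 0.297), so run is a pair there. In liver the correlations were −0.00155 to 0.0293 and the numbers were not used as pairs. Promoter windows came from RefSeq (GRCm38.p6), with at least 1 window for all 10 genes.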

Additional observations from a re-analysis of the deposited data

Results flagged for a closer look

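Il18 in liver was set aside for a closer look because Dscr-1 loss went opposite ways with and without ApoE. Double null livers were 0.62 above ApoE null livers on the log2 scale. Every double null array lay above every ApoE null array, as was so for 16.6% of all genes. Dscr-1 null livers differed by −0.39 from WT livers. Every Dscr-1 null array lay below every WT array, as was so for 16.9% of all genes. The interaction was 1.0 (limma, adjusted p = 0.98, range over its 16 alternatives 0.554 to 1.0) and did not pass. No cause was tested.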

How the results depend on the processing

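No gene of the 10 passed the adjusted threshold in any of the 8 comparisons as fitted. With the trend and robust prior variance 1 passed between double null and WT livers, 1 between Dscr-1 null and WT livers and 1 between Dscr-1 lacking and intact livers, Il1r1 each time. Leaving out single arrays gave 0 to 2 genes in aortic cells (2 without the first and 1 without the second double null array, with spread from the ApoE null pair alone) and 0 in liver. The median over the 10 genes was 0.48 between double null and WT livers with an offset of 64. With all probe sets of a gene averaged it was −0.076 between Dscr-1 null and WT livers and 0.23 for the interaction. Leaving out single arrays moved it over 0.19 to 0.81 between Dscr-1 null and WT livers, −0.42 to 0.10 for the interaction and 0.023 to 0.24 in aortic cells. Of 244 such counts and medians under alternatives 231 stayed close. Of these 231, 117 were counts past the adjusted threshold that stayed at 0, and 114 were medians. The counts at an unadjusted p under 0.05, given above, were not among them.

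With the replicate block the counts were 0 in every comparison and the medians were unchanged. In aortic cells, where the numbers pair the arrays, the blocked Il1rap difference was 1.1 (adjusted p = 0.791). The block changed no adjusted call.

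Of 1434 gene values under alternatives 40 turned sign. Averaging probe sets turned Il1rn (−0.11) and Pycard (−0.045) between Dscr-1 null and WT livers, Il1rn (−0.027) and Il1rap (0.063) between double null and ApoE null livers, Il1rn for Dscr-1 lacking livers (−0.067), and Map3k7 (−0.0088) and Mapk14 (0.20) for ApoE lacking livers, and quantile normalization turned Il1rap between ApoE null and WT livers (0.017). The cause was not tested beyond the disagreement of probe sets given above.

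Leaving out single arrays turned the sign within these ranges. Between double null and WT livers Il1rap ran −0.56 to 0.038, Nlrp3 −0.19 to 1.35 and Il18bp −0.12 to 1.46. Between ApoE null and WT livers Il1rap ran −0.42 to 0.18 and Nlrp3 −0.98 to 1.38. Between Dscr-1 null and WT livers Il1a ran −0.91 to 0.33, Il1rap −0.37 to 0.22, Nlrp3 −0.44 to 1.1 and Il18bp −1.44 to 0.017. Between double null and ApoE null livers Il1rn ran −0.066 to 0.29, Nlrp3 −0.81 to 1.56, Pycard −0.50 to 0.60 and Il18bp −0.67 to 0.91. For ApoE lacking livers Nlrp3 ran −0.36 to 0.82, Il18rap −0.20 to 0.72 and Sigirr −0.47 to 0.24. For Dscr-1 lacking livers Il1rap ran −0.25 to 0.044, Nlrp3 −0.24 to 0.94, Il18 −0.037 to 0.27 and Il18bp −0.69 to 0.10. In aortic cells Casp1 ran −0.28 to 0.18 and Il18bp −0.47 to 0.63. Signals near the array median limit Casp1, Il1a, Il1b, Nlrp3 and Pycard in liver and Il18 in aortic cells.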
